A study of Mus musculus with 20 samples.

Results

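A set of 10 imprinted genes that regulate growth was followed across 20 RNA-seq libraries of primary mouse renal tubular epithelial cells. They are H19, Igf2, Peg3, Zim1, Usp29, Meg3, Dlk1, Cdkn1c, Plagl1 and Grb10. All 10 symbols matched a row among the 55891 Ensembl gene IDs of the deposited table. The genes were chosen by their CPM (each count scaled by its library's total) in these same libraries, because the Peg3 cluster and H19 with Igf2 varied between cultures and after stimulation. Their change with stimulation is therefore described below without a test.

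The libraries fall into 4 groups of 5: knockout (KO) cells with LPS+IFNγ, KO cells without (control), heterozygous (het) cells with LPS+IFNγ, and het control cells. All 10 animals carry the targeted Ptprz1 allele of the strain B6.129-Ptprz1tm1Nmo, in 1 copy in het and in both copies in KO cells, so no group analysed here is wild type. Ptprz1 encodes a receptor-type tyrosine phosphatase, and the series compares its loss in tubular cells at rest and under inflammatory stimulation. Stimulated cells received LPS, a bacterial activator of Toll-like receptor 4, at 100 ng/mL together with interferon gamma at 10 ng/mL for 24 h. The sources used here give no ages. All cells grew in medium with 10% serum, EGF, hydrocortisone and insulin.

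Imprinted genes are expressed mainly from the copy inherited from 1 parent, so their dose depends on methylation marks laid down in the germ line. The paternally expressed Peg3 and Usp29 and the maternally expressed Zim1 are neighbours on chromosome 7, and H19 (maternal), Igf2 (paternal) and Cdkn1c (maternal) lie elsewhere on that chromosome. Many imprinted genes are strongly expressed in the embryo and are turned down after birth, and in the kidney several of them act in the growth of the nephron. Gene-level counts do not tell the parental copies apart.

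Several libraries went against their labels or stood apart. Total counts were 12899528 to 20411411 per library. Ptprz1 itself had 6 and 7 counts in the KO libraries of animal 8, 0 or 1 count in the other KO libraries and 0 to 4 counts in het libraries. At this depth it could not check the genotype labels. In animal 8 (KO replicate 4 in both states) and animal 4 (het replicate 5 in both states) the stimulus genes ran against the label. Nos2, the inducible nitric oxide synthase, had 0 counts in both of their libraries labelled LPS+IFNγ, and stood at 199.9 and 85.3 CPM in the libraries labelled control. In the other 8 animals Nos2 was at 1223 to 3400 CPM in LPS+IFNγ libraries and at 0 to 0.233 CPM in control libraries. Animals 5 and 7 are listed under both genotypes: animal 7 as KO LPS+IFNγ replicate 3 and het control replicate 3, animal 5 as het LPS+IFNγ replicate 3 and KO control replicate 2. Animals 1 and 9 (het replicates 1 and 4) were rich in proximal tubule markers. In their libraries Hnf4a, a transcription factor of that segment, was at 36.3 to 190.4 CPM, and it did not exceed 2.99 CPM in any of the 16 remaining libraries. The epithelial label was only partly borne out by markers: Epcam, an epithelial adhesion molecule, was under 1 CPM in the 6 libraries of animals 2, 6 and 10, and 8 smooth muscle and pericyte markers summed to 285 to 13210 CPM. The sum of 8 epithelial markers, Epcam among them, was 225 to 457 CPM in the libraries of animals 2, 6 and 10. It was 451.5 to 1872 CPM in the rest. In such bulk samples fewer cells of a type and less RNA per cell cannot be told apart.

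A pair of promoter windows shows how the Peg3 cluster is laid out. Peg3 and Usp29 are transcribed away from each other from a single stretch, so their promoter windows (250 bases before to 50 bases after each start, RefSeq, build GRCm38.p6) overlap almost completely. The shared part, chr7:6730370-6730632 on the plus strand, is shown with the cyclic AMP response element (TGACGTCA, read on both strands) in capitals. The Zim1 window, chr7:6696383-6696682 on the minus strand, is shown beside it because Zim1 varied with Peg3 while having a start site of its own.
Peg3-Usp29 shared window: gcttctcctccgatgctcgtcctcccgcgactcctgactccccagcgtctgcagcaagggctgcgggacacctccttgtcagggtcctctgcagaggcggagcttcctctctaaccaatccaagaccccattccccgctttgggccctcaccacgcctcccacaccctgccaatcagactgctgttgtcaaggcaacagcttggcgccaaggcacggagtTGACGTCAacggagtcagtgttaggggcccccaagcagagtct
Zim1 window: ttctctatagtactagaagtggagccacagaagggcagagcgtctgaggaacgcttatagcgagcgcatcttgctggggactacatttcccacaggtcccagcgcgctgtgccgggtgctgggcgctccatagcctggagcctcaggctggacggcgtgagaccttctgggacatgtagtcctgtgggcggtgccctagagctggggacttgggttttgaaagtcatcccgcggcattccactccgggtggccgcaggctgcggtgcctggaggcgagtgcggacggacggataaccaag
The capitals at positions 6730590 to 6730597 are the only match to this motif in the shared window, and the Zim1 window holds none. The motif was picked after the sequence had been read, and it occurs in 588 of 32851 promoter windows (1.79%) and in 3 of 13 windows of the 8 member genes that have one, those of Peg3, Usp29 and Meg3. The Peg3 and Usp29 windows hold the same match, counted once for each gene, so these 3 windows are not 3 separate sites. The interferon-gamma activated site (TTCNNNGAA) was in 0 of these 13 windows and in 8.3% of all windows, and the YY1 core (AANATGGC) was in 0 of 13 and in 6.05%. A match is a string of letters and was not tested as a site. The shared window has 13 CG dinucleotides in 263 bases and the Zim1 window has 20 in 300, against a median of 7 over all windows of 300 bases. The full windows of Peg3 and Usp29 have 13 and 17. Of all windows, 62.1%, 68.6% and 73.5% have fewer than those of Peg3, Usp29 and Zim1. All other members, including H19 and Cdkn1c, are described by their counts only.

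Peg3, a paternally expressed zinc finger gene known for its roles in growth and maternal behaviour, was the member with the deepest counts, 1888 to 20048 per library. In KO LPS+IFNγ libraries it stood at 228, 195, 157, 345 and 108 CPM in replicates 1 to 5. In KO control libraries the values were 505, 473, 549.8, 204 and 416 CPM. In het LPS+IFNγ libraries they were 598, 218, 226, 569.9 and 918.5 CPM, and in het control libraries 982, 576, 473.5, 915 and 488 CPM. The stimulated libraries were low except in animals 1 and 9, and the libraries of animals 4 and 8 ran the other way. With all 20 libraries the stimulated and control groups overlapped in both genotypes. Without animals 4 and 8 they overlapped in het cells but not in KO cells, and the share of all genes separated in this way was not computed.

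Zim1, a maternally expressed zinc finger gene next to Peg3, was lower and more variable, with 11 to 776 counts. It had 1.68, 2.07, 1.47, 7.33 and 0.629 CPM in KO LPS+IFNγ libraries, against 10.99, 7.10, 10.3, 1.17 and 9.69 CPM in KO control libraries. In het LPS+IFNγ libraries the values were 8.70, 2.55, 2.20, 6.93 and 41.2 CPM, against 12.0, 13.6, 12.2, 21.8 and 10.4 CPM in het control libraries. The highest of all 20 values came from the library of animal 4 that is labelled stimulated, and the lowest control value from the library of animal 8 that is labelled control. Without these 2 animals, left out after the data were seen, no stimulated library reached the lowest control library of its genotype. Nothing is read from this, since the stimulus contrast chose the genes and the share of all genes separated in this way was not computed. Usp29, which encodes a ubiquitin-specific protease, had 4.69, 3.10, 2.34, 5.19 and 1.54 CPM in KO LPS+IFNγ libraries and 9.32, 6.95, 6.84, 4.07 and 5.97 CPM in KO control libraries. In het cells it had 20.7, 3.90, 3.49, 12.6 and 13.7 CPM with LPS+IFNγ and 19.3, 7.80, 5.19, 15.1 and 9.40 CPM in control. Its het values overlapped broadly, with the libraries of animals 1 and 9 among the 3 highest in each state. Usp29 overlaps the gene Zim3 on the other strand, and the sources used here do not give the strand setting of the counting, but Zim3 had at most 1 count in a library.

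**Figure D1:**
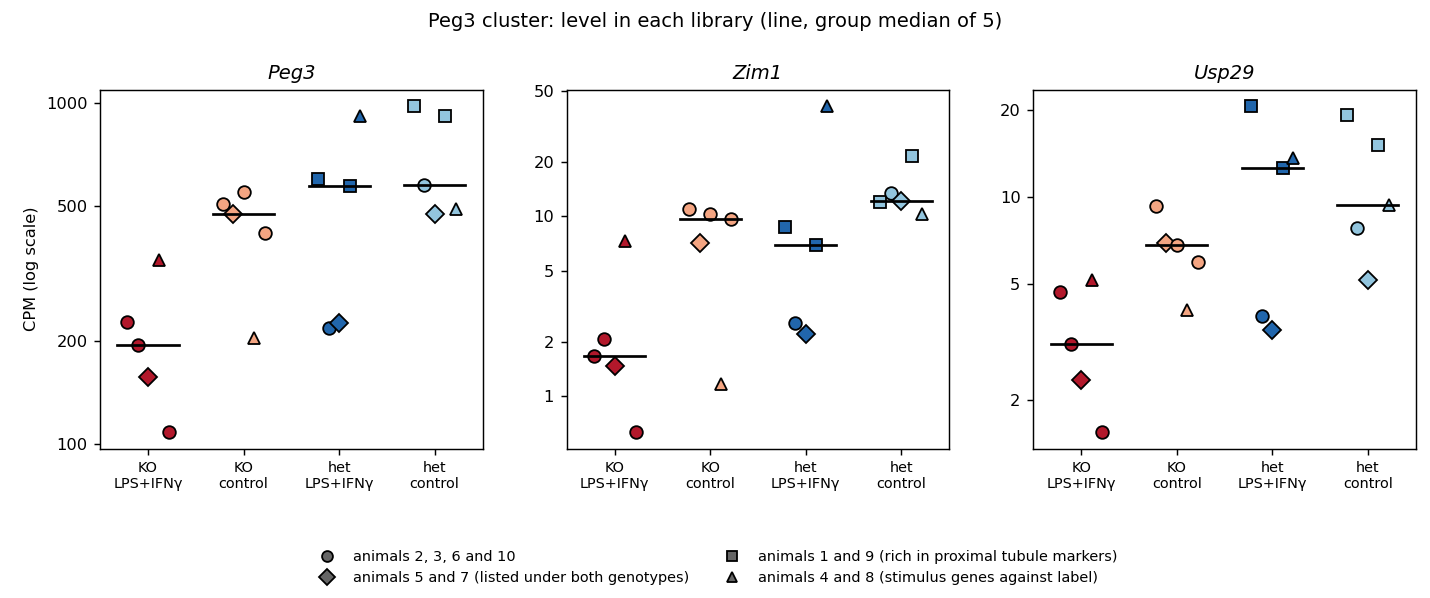
Level of Peg3, Zim1 and Usp29 in CPM (log axis) in each of the 20 libraries, by group, with the group median of 5 libraries as a line and the animals marked by shape. In KO cells the LPS+IFNγ medians of 195, 1.68 and 3.10 CPM lie below the control medians of 473, 9.69 and 6.84 CPM, and the triangles of animals 4 and 8 run the other way.

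Within an animal, the Peg3 cluster was lower in the stimulated culture in nearly all cases. In animals 5 and 7 the 2 libraries carry different genotype labels, so here and below their ratios compare genotype as well as stimulation. Excluding animals 4 and 8, the ratio of the LPS+IFNγ library to the control library was 0.26 to 0.623 for Peg3 (median 0.415), lower in 8 of 8 animals. For Zim1 it was 0.0649 to 0.724 (median 0.195), again lower in 8 of 8. For Usp29 it was 0.259 to 1.07 (median 0.501), lower in 7 of 8, with animal 1 as the exception. In animals 4 and 8 the same ratios were 1.88 and 1.69 for Peg3, 3.97 and 6.26 for Zim1 and 1.452 and 1.28 for Usp29. These are the 2 animals whose stimulus genes ran against the labels. Over all 14568 genes tested, 3031 (20.8%) were lower in 8 of 8 animals and 1959 (13.4%) were lower in all 8 and higher in both animals 4 and 8. Among the 10 members these counts were 6 and 4, and nothing is read from them, since the stimulus contrast chose the genes. Usp29 lay at 10.96 to 34.6 counts per 1000 Peg3 counts over the 20 libraries. For Zim1, KO cells had 7.36, 10.6, 9.39, 21.2 and 5.83 counts per 1000 Peg3 counts with LPS+IFNγ, against 21.8, 15.0, 18.7, 5.73 and 23.3 in control. In het cells there were 14.6, 11.7, 9.76, 12.2 and 44.9 with LPS+IFNγ, against 12.2, 23.6, 25.7, 23.9 and 21.2 in control. Thus Zim1 was lower relative to Peg3 in the stimulated libraries of 7 of these 8 animals, all but animal 1.

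Marker sums moved as well. The 8 smooth muscle and pericyte markers summed to 2842 to 9414 CPM in KO LPS+IFNγ, 5761 to 12570 in KO control, 285 to 9636 in het LPS+IFNγ and 523 to 13210 in het control libraries. In the same 8 animals this sum was lower in the stimulated culture in 8 of 8 (ratio 0.382 to 0.767, median 0.526), and higher in animals 4 (1.02) and 8 (1.25). The sum of 12 proximal tubule markers was also lower in 8 of 8 (0.304 to 0.893), with 1.37 and 1.26 in animals 4 and 8. The sums of 10 leukocyte markers (0.331 to 0.667, with 2.32 and 1.59 in animals 4 and 8), 6 podocyte markers (0.421 to 0.623, with 1.34 and 1.29) and 12 fibroblast markers (0.625 to 0.934, with 1.0 and 0.966) were lower in 8 of 8 too. That of 8 endothelial markers was lower in 7 of 8 (0.621 to 1.0), that of 12 distal nephron markers in 4 of 8 (0.648 to 1.47) and that of 8 epithelial markers in 2 of 8 (0.784 to 1.34). The part of cell composition in the lower Peg3 cluster was not tested. Among the 10 control libraries Peg3 was highest in those of animals 1 and 9, where the smooth muscle and pericyte sum was 523 and 2259 CPM, while 8 more controls had 5761 to 13210 CPM.

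**Figure D2:**
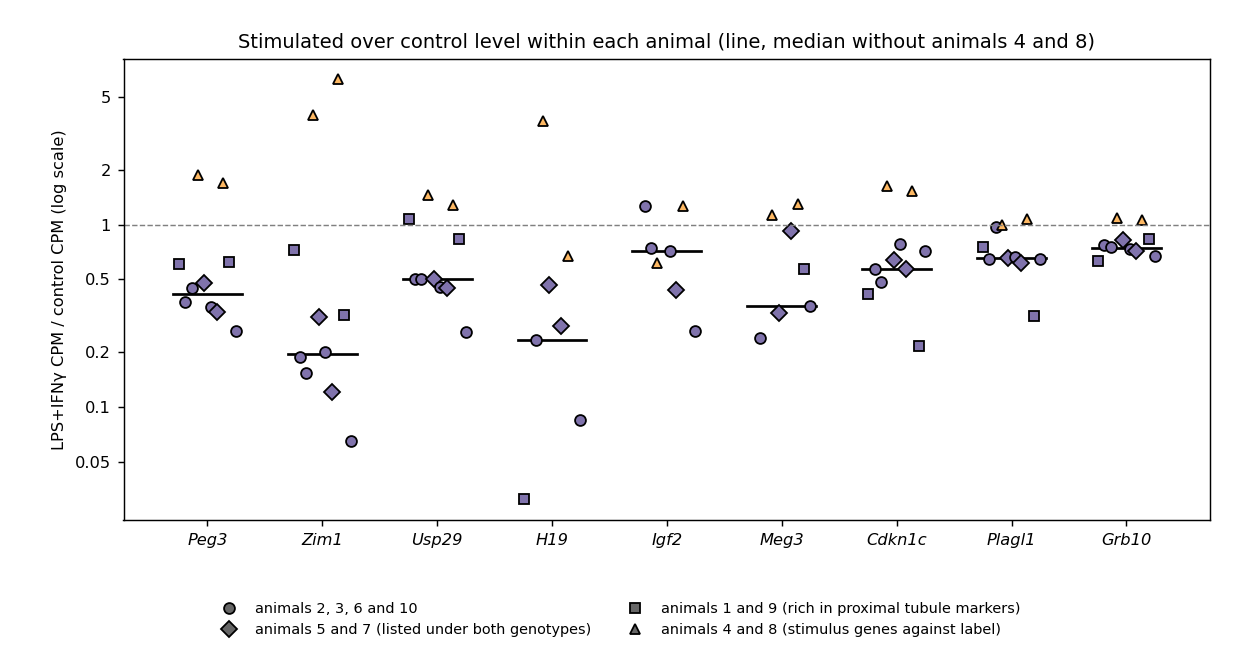
Ratio of the LPS+IFNγ library to the control library of the same animal (log axis) for 9 members, 1 point per animal where both libraries had more than 3 counts, and the median without animals 4 and 8 as a line. The medians run from 0.195 for Zim1 to 0.744 for Grb10, and animals 4 and 8, drawn as triangles, lie above 1 for Peg3, Zim1, Usp29, Meg3, Cdkn1c and Grb10. For animals 5 and 7 the stimulated and control libraries carry different genotype labels.

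H19 and Igf2 share enhancers and a methylation-controlled boundary element, H19 being a long non-coding RNA of the maternal copy and Igf2 the insulin-like growth factor of the paternal copy. H19 had 1.06, 0.0574, 4.79, 1.95 and 0.4004 CPM in KO LPS+IFNγ libraries, against 4.54, 1.57, 1.21, 2.90 and 4.73 CPM in KO control libraries. In het LPS+IFNγ libraries it had 0.286, 0.156, 0.735, 0.132 and 6.37 CPM, against 9.16, 1.05, 17.3, 1.095 and 1.72 CPM in het control libraries. The 2 highest control values belonged to animals 7 and 1, and the highest stimulated value to the library of animal 4. Excluding animals 4 and 8, H19 was lower in the stimulated culture in 8 of 8 animals, with a ratio of 0.0312 to 0.469 (median 0.234) in the 5 animals with more than 3 counts in both libraries. In animals 4 and 8 the ratio was 3.71 and 0.672.

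Igf2 was near the limit of detection, with 2 to 31 counts per library. It had 0.447, 0.574, 0.762, 0.389 and 0.343 CPM in KO LPS+IFNγ libraries and 0.597, 0.261, 0.805, 0.308 and 1.32 CPM in KO control libraries. In het cells it had 0.114, 0.312, 0.184, 0.198 and 0.319 CPM with LPS+IFNγ and 0.392, 0.248, 1.75, 0.692 and 0.516 CPM in control. A count of 3, the limit that a count of 0 allows, equals 0.147 to 0.233 CPM in these libraries, and the 5 het LPS+IFNγ libraries held 20 Igf2 counts together. Within an animal it was lower in the stimulated culture in 7 of 8 animals without animals 4 and 8. Its highest value and that of H19 came from the same library, het control replicate 3 of animal 7. Igf2 overlaps Gm49394 on the same strand and Igf2os on the other, and both had at most 0.229 CPM.

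Meg3, a maternally expressed long non-coding RNA of chromosome 12, split by animal. In the 8 libraries of animals 4, 7, 8 and 10 it had 2.00 to 7.05 CPM, and in the 12 others 0 to 0.940 CPM. By group the values were 0.168, 0.115, 6.48, 3.05 and 2.00 CPM in KO LPS+IFNγ, 0.418, 0.940, 0.632, 2.34 and 5.58 CPM in KO control, 0.114, 0.208, 0.306, 0.396 and 6.32 CPM in het LPS+IFNγ, and 0, 0.867, 7.05, 0.692 and 5.62 CPM in het control. Every group thus held low and high libraries. Within an animal Meg3 was lower in the stimulated culture in 7 of 8 animals without animals 4 and 8, with a ratio of 0.240 to 0.919 (median 0.359) in the 5 that had more than 3 counts in both libraries, and 1.13 and 1.30 in animals 4 and 8. Rian, the neighbouring maternally expressed host of small nucleolar RNAs, split the same animals, with 5.86 to 21.5 CPM in animals 4, 7, 8 and 10 and 0.114 to 3.29 CPM in the others. Fibroblast markers ran partly with it: their sum of 12 genes was 4887 to 15250 CPM in animals 4, 7 and 8, 1172 and 1469 CPM in animal 10, and 50.4 to 1951 CPM in the rest, and their part in the Meg3 level was not tested. Meg3 overlaps Gm26906 on the other strand, with the same limit on strand as for Usp29. Dlk1, the paternally expressed Notch-related partner of Meg3, had 0 counts in 10 libraries and at most 8 in the other 10, up to 0.620 CPM in KO control replicate 5, and was too low to be tested.

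**Figure D3:**
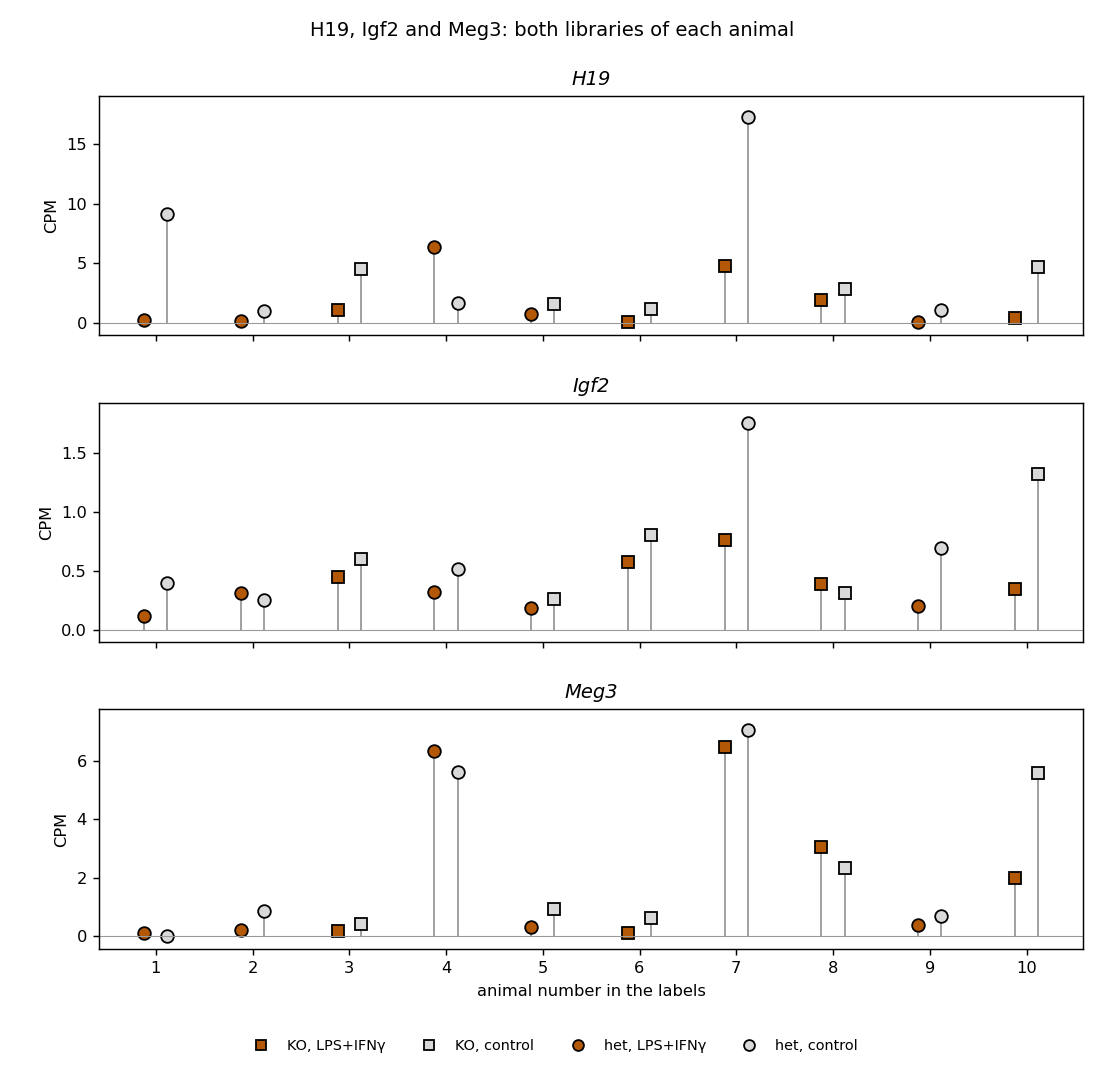
H19, Igf2 and Meg3 in CPM in both libraries of each of the 10 animals, squares for KO and circles for het, filled brown for LPS+IFNγ and grey for control. Meg3 is high in both libraries of animals 4, 7, 8 and 10 (2.00 to 7.05 CPM), and H19 peaks at 17.3 CPM in the control library of animal 7.

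Among the growth inhibitors, Cdkn1c, which encodes the cyclin-dependent kinase inhibitor p57, varied most. It had 8.38, 2.53, 2.94, 10.45 and 2.06 CPM in KO LPS+IFNγ libraries and 17.3, 7.68, 3.22, 6.85 and 2.87 CPM in KO control libraries. In het cells it had 6.35, 1.98, 4.90, 7.13 and 6.27 CPM with LPS+IFNγ and 15.3, 3.47, 5.13, 33.3 and 3.84 CPM in control. The groups overlapped, and the highest controls were those of animals 9, 3 and 1. Its ratio within an animal was 0.215 to 0.785 (median 0.572) without animals 4 and 8, and 1.63 and 1.53 in those 2. Cdkn1c overlaps Gm44732 on the other strand. Plagl1, a zinc finger gene that arrests the cell cycle, stayed within 3.43 to 14.9 CPM in all 20 libraries and had ratios of 0.316 to 0.965 (median 0.656) without animals 4 and 8, and of 0.998 and 1.08 in those 2. Grb10, an adaptor that restrains insulin and IGF receptor signalling, was the steadiest member, at 172 to 430.1 CPM. It averaged 252 ± 51.4 CPM in KO LPS+IFNγ, 298 ± 9.29 in KO control, 246 ± 85.1 in het LPS+IFNγ and 317 ± 83.1 in het control (SD, n = 5 each). Its ratio within an animal was 0.635 to 0.837 (median 0.744), lower in 8 of 8 animals, and 1.08 and 1.06 in animals 4 and 8.

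The fitted fold changes put these values in 1 model over all genes (edgeR's quasi-likelihood test, log2 ± SE, a gene being called where its p, adjusted by Benjamini-Hochberg, was under 0.05). With all 20 libraries, LPS+IFNγ against control called 0 of 14568 genes in KO cells (0.0%) and 0 in het cells (0.0%), with 1307 and 1981 genes under 0.05 before adjustment and with 115 and 483 calls by DESeq2. Peg3 stood at −1.02 ± 0.38 in KO and −0.34 ± 0.38 in het cells, Zim1 at −1.54 ± 0.75 and −0.11 ± 0.72, and H19 at −0.79 ± 1.07 and −1.90 ± 1.09, each KO value first. Without animals 4 and 8 the same values were −1.44 ± 0.34 and −0.74 ± 0.33 for Peg3, −2.63 ± 0.44 and −1.42 ± 0.42 for Zim1 and −0.85 ± 1.06 and −4.29 ± 1.22 for H19. These values are a description, because the contrast chose the genes. The median over the 9 fitted members was −0.85 in KO and −1.32 in het cells. For H19, animal 7 has its control library (17.3 CPM) in the het group and its stimulated library (4.79 CPM) in the KO group. Without animals 5 and 7, and with animals 4 and 8 kept, the H19 response in KO minus that in het cells was −1.10. With all 20 libraries this difference had the opposite sign.

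The genotype comparison asks whether the level differs between KO and het cells in the same state. No gene was called in either state: 0 of 14568 with LPS+IFNγ (0.0%) and 0 of 14568 in control (0.0%), with 366 and 499 genes at an unadjusted p under 0.05 and with 0 and 2 calls by DESeq2. With LPS+IFNγ, the Peg3 cluster was lower in KO cells at an unadjusted p only: Peg3 averaged 207 ± 89.5 CPM in the KO group, against 506 ± 293 CPM in the het group (SD, n = 5 each), a log2 fold change of −1.28 ± 0.38 with an edgeR adjusted p of 1.00. Zim1 stood at −2.20 ± 0.76 (edgeR adjusted p = 1.00) and Usp29 at −1.68 ± 0.47 (edgeR adjusted p = 1.00). These are 3 of the 9 tested members, beside 278 of 14568 genes (1.91%) that were lower at an unadjusted p under 0.05. The Peg3 cluster was chosen because it varied between these same cultures. These p-values and this share are therefore a description, from which nothing is concluded. The 3 genes are neighbours and do not count as 3 observations. Igf2 stood at 1.13 ± 0.54 (edgeR adjusted p = 1.00), from 44 counts in the KO and 20 in the het libraries together.

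The size of that difference depended on which animals were included. Both proximal-tubule-rich animals, 1 and 9, are het. In their LPS+IFNγ libraries the sum of 12 proximal tubule markers was 182 and 199 CPM and that of 10 leukocyte markers 64.2 and 214.9 CPM, and their part in the lower level in KO cells was not tested. Without animals 1, 4, 8 and 9 the LPS+IFNγ values were −0.41 ± 0.25 for Peg3, −0.74 ± 0.35 for Zim1 and −0.38 ± 0.38 for Usp29, and with animal as a block they were −0.52 ± 0.71, −1.27 ± 1.60 and −0.46 ± 0.55. With the block the genotype value rests on animals 5 and 7, the only ones listed under both genotypes. In control cells the values were −0.60 ± 0.38 for Peg3, −0.77 ± 0.72 for Zim1 and −0.69 ± 0.45 for Usp29 (edgeR adjusted p = 0.999 for each), and without animals 1, 4, 8 and 9 they were −0.12 ± 0.25, −0.45 ± 0.33 and 0.15 ± 0.38. The difference between the responses of KO and het cells was not called for any gene (0 of 14568, 0.0%, 138 at an unadjusted p under 0.05, and 1 by DESeq2). It was −0.68 ± 0.53 for Peg3, −1.44 ± 1.03 for Zim1 and 1.11 ± 1.51 for H19 (edgeR adjusted p = 1.00 for each).

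**Figure D4:**
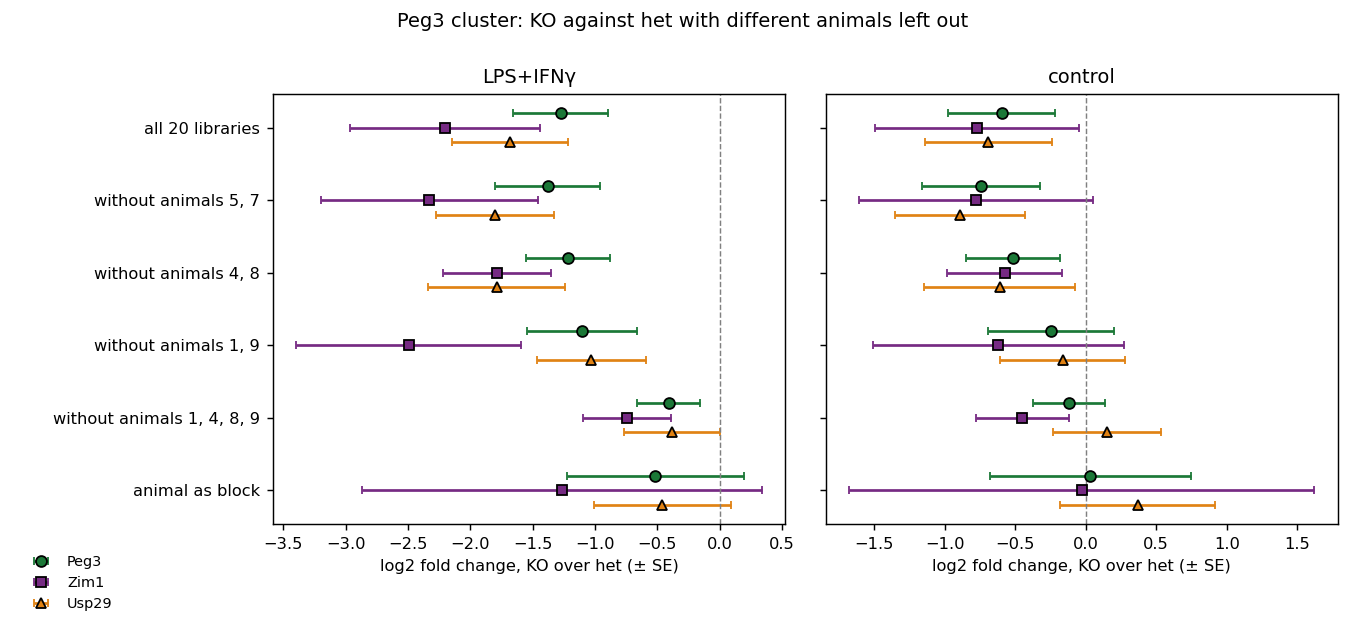
Log2 fold change of KO over het (± SE) for Peg3, Zim1 and Usp29 with LPS+IFNγ (left) and in control cells (right), fitted on all 20 libraries, without the named animals, or with animal as a block. With LPS+IFNγ the values lie between −2.20 and −1.28 on all libraries and between −0.74 and −0.38 without animals 1, 4, 8 and 9.

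Whether members varied together between animals was examined over the 10 libraries of each state, 1 per animal, for 45 pairs of members (log2 of CPM + 1, permutation test with 100000 resamples, Benjamini-Hochberg over 45 pairs). The Peg3 cluster and H19 with Igf2 were chosen because they varied between these same cultures. The p-values are therefore a description from which nothing is concluded, and the share of such pairs among other genes was not computed. In LPS+IFNγ libraries 8 pairs and in control libraries 1 pair had an adjusted p under 0.05. The pooled r is not given for single pairs, since animals 1 and 9 and animals 4 and 8 stood apart from the rest. In the 6 remaining animals no pair passed (exact permutation tests, 5 and 3 pairs at an unadjusted p under 0.05). There Peg3 and Usp29 had r = 0.960 and rho = 0.943 with LPS+IFNγ (exact p = 0.00417 and 0.0167, adjusted p = 0.188 and 0.375), and r = 0.750 without the 2 animals farthest from the median (exact p = 0.292). In control libraries of these animals Peg3 and Usp29 had r = 0.510 and rho = 0.486 (exact p = 0.301 and 0.356). H19 and Igf2 had r = 0.828 and rho = 0.829 in control (exact p = 0.0347 and 0.0583, adjusted p = 0.521 and 0.656). Without the 2 animals farthest from the median r was 0.495 (exact p = 0.542), and too few animals remain there to tell whether the relation holds. With LPS+IFNγ, H19 and Igf2 had r = 0.582 and rho = 0.257 (exact p = 0.235 and 0.658). In control, 2 pairs of genes on different chromosomes had a lower p for r than H19 and Igf2. These were Plagl1 with Grb10 (r = 0.824, exact p = 0.00972) and Usp29 with Meg3 (r = −0.869, exact p = 0.0139), with an adjusted p of 0.3125 each.

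The genes most like each member over all 20 libraries were found by Pearson's r of log2(CPM + 1) among 11659 genes, as a description, since the libraries share animals and stimulation. Meg3 was closest to Rian (r = 0.970), followed by Prrx1 (0.875), a mesenchymal homeobox gene, Chst1, Mmp16 and the collagen gene Col3a1 (0.845). Peg3 was closest to Mospd2 (0.868), Rtn4ip1, Glrx3, Smim24 and Aldh7a1 (0.857), and Zim1 to Arfip1 (0.853), Ndufaf7, Rbm22, Atp6v0a1 and Fam149b (0.838). H19 was closest to Hmgn2 (0.898), Ermp1, Bmf, Sox12 and Ptprd (0.871), and Igf2 to Tmem86a (0.872), Gucy1a2, Emc2, Pheta1 and Sema6c (0.787). No gene was on more than 1 of these 5 short lists.

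Among genes that set or maintain imprints, 1 fell and 1 rose with stimulation in both genotypes once animals 4 and 8 were left out, a choice made after the data were seen. In the 16 libraries without animals 4 and 8, of 13 tested genes of the 14 listed, 1 was called higher and 1 lower in each genotype, with and without animal as a block. Over all 14630 genes 5.76% were called in KO and 7.15% in het cells, and with the block 13.4% and 18.6%. With the block the share called in this list was near that over all genes. The list is short, and nothing is concluded about it from these counts. Dnmt3a, a de novo DNA methyltransferase, had 58.6, 50.1, 86.8 and 61.3 CPM in KO LPS+IFNγ libraries of animals 3, 6, 7 and 10, against 138, 107, 99.1 and 105 CPM in KO control libraries of animals 3, 5, 6 and 10. In het LPS+IFNγ libraries of animals 1, 2, 5 and 9 it had 45.6, 57.3, 55.5 and 42.5 CPM, against 106, 103.5, 158 and 129 CPM in het control libraries of animals 1, 2, 7 and 9. Dnmt3a fell by 0.75 ± 0.19 in KO and 1.17 ± 0.19 in het cells on the log2 scale (edgeR adjusted p = 0.0284 and 0.000999). Smchd1, a chromatin protein that takes part in silencing imprinted clusters, had 137 to 154 CPM in KO LPS+IFNγ and 84.8 to 106 CPM in KO control libraries of these animals, and 126 to 142 CPM in het LPS+IFNγ and 86.2 to 114 CPM in het control libraries. It rose by 0.68 ± 0.094 in KO and 0.63 ± 0.094 in het cells (edgeR adjusted p = 0.000262 and 0.000454). Within an animal Dnmt3a was lower in 8 of 8 (ratio 0.330 to 0.582) and Smchd1 higher in 8 of 8 (1.24 to 1.65). In animals 4 and 8 the ratios were 1.42 and 1.57 for Dnmt3a and 0.825 and 0.796 for Smchd1. Neither gene was called with all 20 libraries (Dnmt3a edgeR adjusted p = 0.811 in KO and 0.419 in het cells, Smchd1 0.325 and 0.182). The median over the 13 genes was 0.079 in KO and −0.0086 in het cells in the 16 libraries, beside −0.0059 and −0.026 over all 14630 genes.

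**Figure D5:**
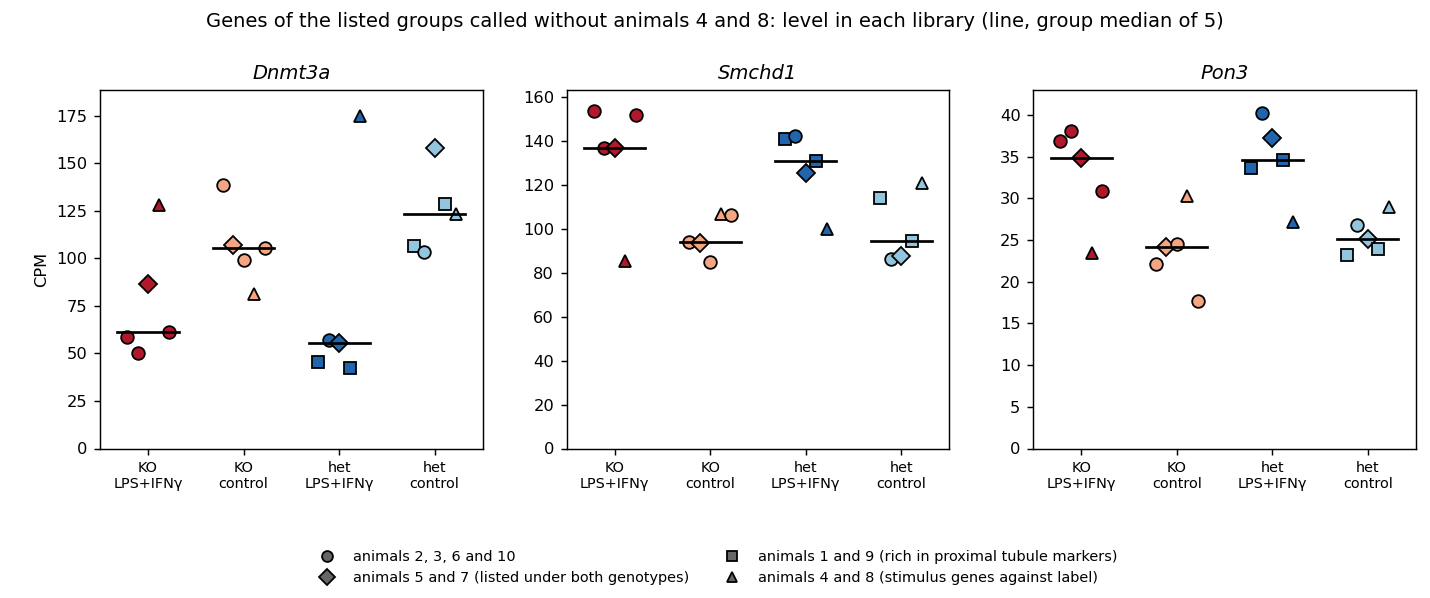
Dnmt3a, Smchd1 and Pon3 in CPM in each library by group, with the group median of 5 libraries as a line and the animals marked by shape. Excluding the triangles of animals 4 and 8, stimulated libraries lie below the controls for Dnmt3a (42.5 to 86.8 against 99.1 to 158 CPM) and above them for Pon3 (30.9 to 40.2 against 17.7 to 26.8 CPM). The genes are shown because they were called in these libraries, and the share of all genes separated in this way was not computed.

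Among other imprinted genes the calls depended on whether the fit compared the libraries within animals. Of 53 listed, 36 were tested in the 16 libraries. Without the block 1 was called in each genotype, beside 5.76% in KO and 7.15% in het cells over all genes. This was Pon3, a paraoxonase gene of the Peg10 cluster, which rose by 0.72 ± 0.14 in KO and 0.68 ± 0.14 in het cells (edgeR adjusted p = 0.00492 and 0.00707). It had 30.9 to 38.1 CPM in KO LPS+IFNγ libraries and 17.7 to 24.5 in KO control libraries, and 33.6 to 40.2 CPM in het LPS+IFNγ and 23.2 to 26.8 in het control libraries. Dio3, a thyroid hormone deiodinase gene of the Dlk1 and Meg3 cluster, stood at −1.30 ± 1.00 in KO and −2.79 ± 1.09 in het cells (edgeR adjusted p = 0.613 and 0.155). The median of the list was −0.050 in KO and −0.22 in het cells. With animal as a block 2 genes were called higher and 1 lower in KO cells, and 4 higher and 6 lower in het cells, a share to be read beside the 13.4% and 18.6% over all genes. Pon3 and Sfmbt2, a Polycomb-related gene, rose in both genotypes, Sfmbt2 by 1.00 ± 0.21 in KO and 0.98 ± 0.23 in het cells (edgeR adjusted p = 0.0163 and 0.0231). Mest, a paternally expressed hydrolase gene, fell by 1.32 ± 0.23 in het cells (edgeR adjusted p = 0.00726). Rian was lower in the stimulated culture in 8 of 8 animals (ratio 0.327 to 0.708), with 0.889 and 1.47 in animals 4 and 8. Its fitted value was 0.68 ± 1.19 in KO and −2.65 ± 1.28 in het cells without the block, and −0.42 ± 0.21 and −0.99 ± 0.26 with it (edgeR adjusted p = 0.255 and 0.0310 with the block). Of 19 tested genes of the IGF axis (21 listed), 1 was called without the block in each genotype, beside the same 5.76% and 7.15%. This was Stc1, a stanniocalcin gene, which rose by 1.63 ± 0.44 in KO and 1.97 ± 0.44 in het cells (edgeR adjusted p = 0.0413 and 0.0132). Within animals Stc1 was higher in 7 of 8, with a ratio of 0.935 in animal 3, and with the block it lost its call in KO and kept it in het cells (edgeR adjusted p = 0.103 in KO and 0.0167 in het cells). It had 0.614 to 1.74 CPM in KO LPS+IFNγ and 0.233 to 0.657 CPM in KO control libraries, and 1.14 to 1.35 CPM in het LPS+IFNγ and 0.245 to 0.564 CPM in het control libraries. Its relative Stc2 stood at −1.54 ± 0.53 and −1.46 ± 0.53 (edgeR adjusted p = 0.128 and 0.127), and Igf2bp2, an RNA-binding protein gene, at 0.56 ± 0.22 in het cells (edgeR adjusted p = 0.153). With the block 2 genes were called higher and 1 lower in KO cells, and 4 higher and 2 lower in het cells. These counts too are to be read beside the 13.4% and 18.6% over all genes. Stc2 then fell by 1.44 ± 0.20 in KO and 1.37 ± 0.20 in het cells (edgeR adjusted p = 0.00229 and 0.00338), and Igf2bp2 rose by 0.43 ± 0.080 and 0.64 ± 0.080 (edgeR adjusted p = 0.00975 and 0.0014). Igfbp3, a secreted IGF-binding protein, rose by 2.77 ± 0.62 and 2.66 ± 0.66 (edgeR adjusted p = 0.0221 and 0.0279). Sfmbt2, Mest, Rian and Igfbp3 were named after their values had been seen. The median of the list was −0.083 in KO and −0.29 in het cells. Between KO and het cells no gene of the 3 lists was called in either state with all libraries or in the 16, with or without the block. With all 20 libraries the lowest p of the lists was that of Igfbp4, another secreted IGF-binding protein, at −2.86 ± 0.97 in control and −2.06 ± 0.96 with LPS+IFNγ (edgeR adjusted p = 0.999 and 1.00).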

How the data were processed

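The authors deposited a table of whole-number estimated counts (expected counts) per Ensembl gene ID for 20 libraries. The submitters' processing notes name Salmon 1.10.2, FastQC 0.11.9, R 4.4.1, DESeq2 1.45.3 and build GRCm39, with no order of steps, and give no strand setting. Total RNA and a directional kit were used, per the labels' protocols. Symbols came from GENCODE M21 (build GRCm38) for 51425 of 55891 IDs (92.01%).

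From these counts, CPM is the count scaled by its library total. One quasi-likelihood model over all 4 groups was fitted with edgeR 4.0.16 in R 4.3.3 (TMM scaling, genes passing filterByExpr, 14568 genes). It was tested on simulated data. DESeq2 1.42.0, limma-voom (limma 3.58.1), animal as a block and leaving out libraries were alternatives. Same-numbered animals gave both libraries of a pair, per the labels, with correlations of −0.298 to 0.623, above 0.1 in 8 of 10 pairs. The labels name separate animals.

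The members and gene lists were chosen with earlier results of these data known. Besides the members, the rule for named genes took up to 3 genes of each list per comparison by lowest p, of which the text gives some, and the 5 genes most like each of 5 members by Pearson's r. Correlations used 100000 resamples, or all orders for fewer than 10 animals. The ± SE of a fit and the ± SD of a group include the spread between libraries. The limit of 3 counts covers counting error only.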

Additional observations from a re-analysis of the deposited data

Results flagged for a closer look

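A value was picked out where its gap to the nearest library of its group exceeded 0.71 of the group's range, Dixon's limit for 5 libraries. Of 40 such groups, 6 had one. Chance gives about 1 in 20 for normally distributed values, and whether these CPM are so distributed was not tested. The Peg3 cluster and H19 with Igf2 were chosen because they varied between these same cultures. Nothing is therefore read from the number of values picked out. Het LPS+IFNγ replicate 5 (animal 4) held 3 of the 6 values: H19 at 6.37 CPM with the nearest other library at 0.735, Zim1 at 41.2 CPM with the nearest at 8.70, and Meg3 at 6.32 CPM with the nearest at 0.396. Its Nos2 count was 0. Zim1 stood at 7.33 CPM in KO LPS+IFNγ replicate 4 (animal 8), with the nearest at 2.07 CPM, and Nos2 was again 0. Zim1 also stood at 21.8 CPM in het control replicate 4 (animal 9), with the nearest at 13.6 CPM. Dlk1 stood at 0.620 CPM in KO control replicate 5 (animal 10), with the nearest at 0.1195 CPM.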

How the results depend on the processing

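Leaving out animals 4 and 8, 1 and 9, or both pairs was chosen after seeing the data. LPS+IFNγ against control called 0 genes in both genotypes with all 20 libraries by edgeR, and 115 in KO and 483 in het cells by DESeq2. Without animals 4 and 8 it called 843 in KO and 1046 in het cells, with animal as a replicate block in addition 1968 and 2724, without animals 4, 5, 7 and 8 462 and 604, and without animals 1, 4, 8 and 9 1960 and 623. Leaving out 1 library at a time gave 0 to 152 calls in KO and 0 to 744 in het cells. Calls came without KO LPS+IFNγ replicate 4 (152 in KO, 123 in het cells) and without het LPS+IFNγ replicate 5 (744 in het cells). DESeq2 called 2 genes between KO and het control cells and 1 for the difference in response. With animal as a replicate block on all 20 libraries, 0 genes were called in each of the 5 comparisons. Of 45 pairs of members, the 8 correlated in LPS+IFNγ libraries became 3 without the 2 farthest animals, 3 without animals 4 and 8, and 6 to 8 leaving out 1 animal. The 1 pair in control libraries became 0, 0 and 0 to 1.

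Of 319 alternatives for the 10 tested member values, 309 kept their direction and none passed the threshold. Of 572 alternatives for the 18 described stimulation values, 545 kept their direction and 43 moved beyond 1 SE. In het cells Zim1 kept its sign in 26 of 32 (−2.33 to 0.34) and Usp29 in 20 of 32 (−0.72 to 0.31), and in KO cells Meg3 in 25 of 31 (−1.42 to 1.13). In control cells KO against het turned to 0.032 for Peg3 and 0.37 for Usp29 with the block, to 0.076 for Peg3, 0.081 for Zim1 and 0.46 for Usp29 with the block and without animals 4 and 8, and to 0.15 for Usp29 without animals 1, 4, 8 and 9. With LPS+IFNγ, Igf2 turned to −0.22 with the block and to −0.28 with the block and without animals 4 and 8. The difference in response of H19 turned to −0.33 with the block and to −1.10 without animals 5 and 7. The cause was not tested. Depth limits Igf2, Dlk1 and Meg3, whose low libraries hold few counts.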
